A study of Mus musculus with 4 samples.

Results

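The genes of mitochondrial fatty acid oxidation and ketone body use were followed in injured mouse kidneys with and without tubular Apela. The set holds 34 genes, chosen by gene symbol from this pathway and its fuel supply, and all 34 were found among the 54078 features of the deposited table. Apela encodes the peptide hormone ELA. In KO mice it was deleted by crossing mice with 2 floxed Apela alleles to Ksp-Cre mice, in which the Ksp-cadherin promoter drives Cre in renal tubular epithelium, and WT mice were Cre-negative littermates with the same floxed alleles. All mice were adult males of matched age, and all underwent bilateral renal ischaemia of 30 min followed by reperfusion (bI/R) until day 3. There were 2 libraries of WT and 2 of KO kidney, each described as RNA pooled from 3 mice, so n = 2 counts pools and p-values measure the spread between pools. No uninjured kidney was analysed here, so a difference from a healthy level cannot be given. The labels give the strain as C57BL/6 x 129S4/SvJae, whereas the methods of the study give C57BL/6. The comparison was made in the study to find pathways altered in the more severe acute injury of the KO mice.

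Fatty acids are the main fuel of the proximal tubule, whose cells hold many mitochondria and use little glucose. A fatty acid is taken up, bound to coenzyme A by a synthetase, carried through the mitochondrial membranes as a carnitine ester, and then shortened in repeated rounds of dehydrogenation, hydration, a second dehydrogenation and thiolysis, whose electrons pass to the respiratory chain in part through the electron transfer flavoprotein. The acetyl-CoA enters the citrate cycle, or is made into ketone bodies, which other cells oxidize. Many of these genes are known targets of the nuclear receptor PPARalpha, and loss of fatty acid oxidation is a known feature of injured tubules.

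Read totals on genes were 16045724 to 16927742 per library, and each of the 34 genes was covered by 549 to 37160 reads in every pool, so that counting error was small beside the differences between pools. The values are FPKM, fragments scaled to gene length and to the library total, and differences are given on the log2(FPKM + 0.5) scale, which understates changes of low genes. Apela itself had an FPKM of 5.27 and 4.57 in WT pools 1 and 2 and of 0.536 and 0.245 in KO pools 1 and 2. The deposited design text names adipose tissue as the source of the RNA, while the title, the sample labels and the study name kidney. Of the defining adipocyte genes, Adipoq was at 0 in 3 pools and at an FPKM of 0.268 in KO pool 2, Lep and Retn were at most at 0.074 and Plin1 at most at 0.347, while Cidec had 1.37 and 0.282 in WT and 7.92 and 2.79 in KO. The kidney genes Lrp2 (70.4 to 99.9) and Umod (788 to 1133) were high in every pool. WT pool 2 was further from the other 3 pools than these were from each other. Over the 15414 genes tested, the median absolute log2 difference was 0.196 to 0.221 in the 3 pairs that hold WT pool 2 and 0.167 to 0.172 in the other 3 pairs. It was the lowest of the 4 pools for 30.5% of these genes, compared with 21.9% to 23.7% for the other pools, and the highest for 29.1%, compared with 20.7% to 25.2%. The chi-square per gene between replicate pools was 34.6 for WT and 26.9 for KO, far more than counting error gives. The median log2 differences of the gene lists and the values of the main members are therefore given with and without it.

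No gene of the pathway passed the test between injured Apela Ksp KO and WT kidneys. With limma and Benjamini-Hochberg adjustment over 15414 genes, those whose FPKM averaged 0.5 or more, which include all 34 members, 0 members had an adjusted p under 0.05, as did 0% of all genes tested, and the smallest adjusted p among members was 0.785, for Acot2. The deleted gene Apela did not pass either, with a log2 difference of -2.62 (SE 0.22, limma adjusted p = 0.466). No gene tested had a smaller adjusted p, so with 2 pools a group the test did not call even the deleted gene. At an unadjusted limma p under 0.05 there was 1 member higher in KO, again Acot2, where 3.29% of all genes were, and 0 lower, where 3.03% of all genes were. Of the 34 members, 29 had a higher mean in KO and 5 a lower one, and their median log2 difference was 0.37, compared with 0.0071 over all genes tested. By the same measure, 7917 of all 15414 genes tested were higher in KO and 7497 lower. Each KO pool lay above each WT pool for 13 members, among which were Cpt1a, Cpt2, Slc25a20, Acadl, Acadvl, Hadha, Acot2 and Pdk4, and 19.7% of all genes did so. Both KO pools lay below both WT pools for 1 member, Oxct1, and 18.1% of all genes did so. In the other 20 the groups overlapped.

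The higher mean of the KO group came with a low WT pool 2. WT pool 2 held the lowest FPKM of the 4 pools for 31 of 34 members, compared with the 30.5% of all genes given above, and KO pool 1 held the lowest for the other 3, namely Acsm2, Bdh1 and Oxct1. WT pool 1 was above WT pool 2 for all 34, by 1.09-fold for Oxct1 to 3.55-fold for Pdk4 with a median of 1.57-fold. The KO pools had no such common order, with 16 members higher in KO pool 1 and 18 higher in KO pool 2. The 2 WT pools were further apart than the group means for 28 members. The groups were further apart than either pair of pools for 3, Cpt1a, Acadvl and Acot2. These counts, and those of the order within each pair of pools, were not made over all genes, so they do not set the members apart. When WT pool 2 was left out, the median log2 difference of the members was 0.075, 23 of them lay within 0.25 of 0, and 6 changed sign. The last 2 counts were not made over all genes. Over all genes, the median absolute log2 difference from WT pool 1 was 0.172 for KO pool 1 and 0.167 for KO pool 2. Without WT pool 2, both KO pools were above WT pool 1 for 13 members, where 34.3% of all genes were. They were below it for 5, where 32.0% of all genes were. When WT pool 1 was left out instead, the median was 0.67. As these are bulk kidney libraries, fewer cells of a type and less RNA per cell cannot be told apart.

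**Figure D1:**
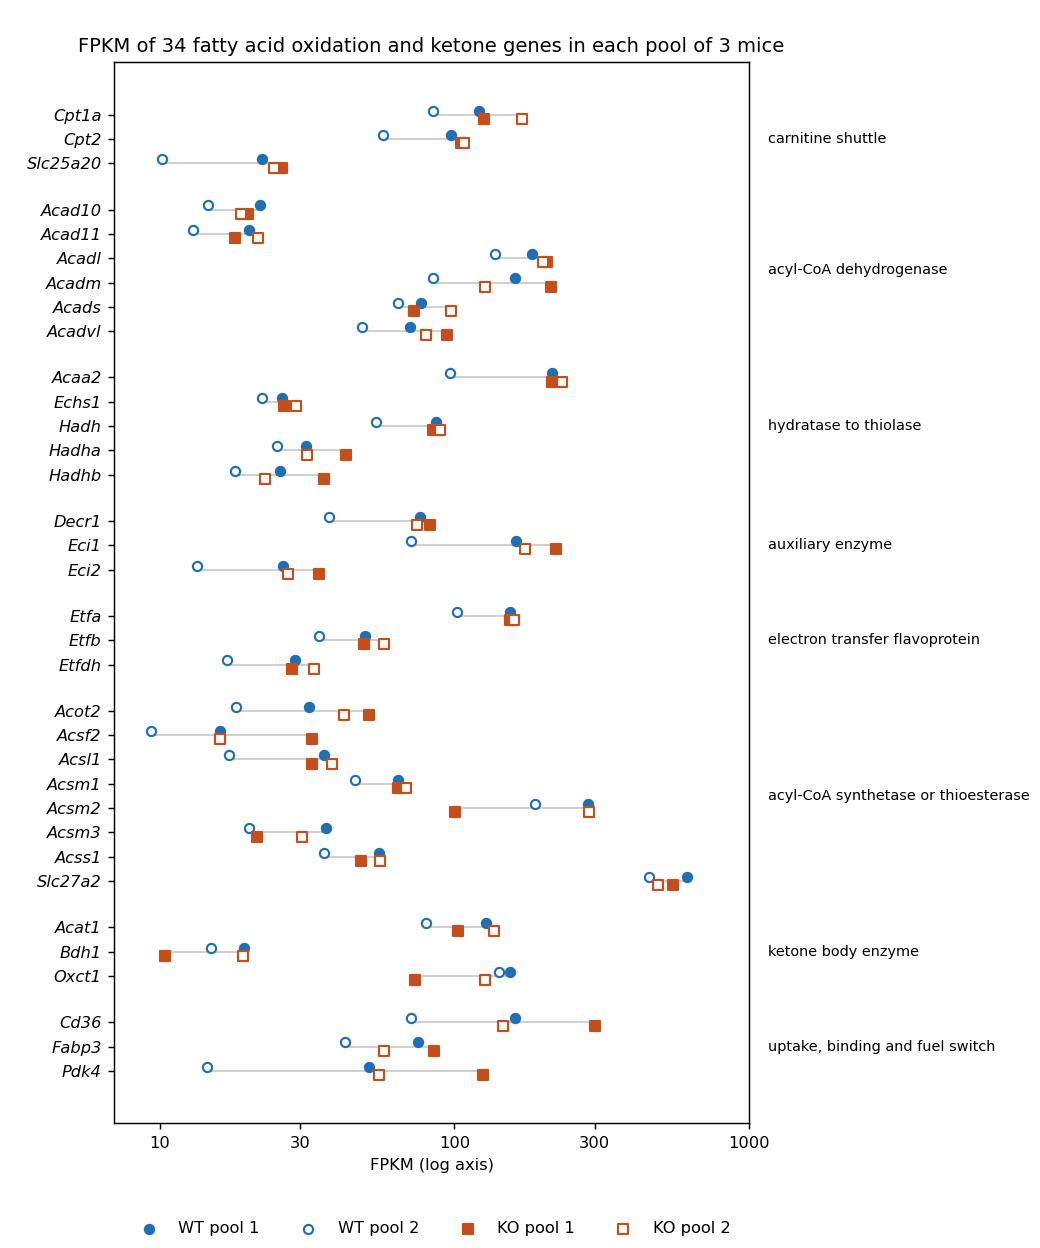
FPKM on a log axis of each of the 34 genes in the 4 pools (circles, WT; squares, KO; filled, pool 1; open, pool 2; the grey line spans the 4 values), grouped by role. The open circle of WT pool 2 is the leftmost point in 31 rows, and KO pool 1 is the leftmost point for Acsm2, Bdh1 and Oxct1.

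The promoters of 6 members are printed because these genes mark the ends of the pattern described here. Cpt1a, Acadvl and Acot2 had groups further apart than their pools, Pdk4 had the largest difference, Oxct1 was the member with both KO pools below both WT pools, and Acsm2 was high in 3 pools and low in KO pool 1. Each sequence runs 5′ to 3′ on the strand of the gene, from 250 bases before to 50 bases after the RefSeq start on GRCm38.p6. Capitals mark matches on either strand to 6 motifs, namely AGGTCA (the nuclear receptor half-site), TCAAGGTCA (the form known for estrogen-related receptors), a direct repeat of AGGTCA with 1 base between (the form known for PPAR and HNF4), the GC box GGGCGG, the CCAAT box and the TATA box, searched as TATAAA.
Cpt1a, chr19:3323051-3323350, plus strand: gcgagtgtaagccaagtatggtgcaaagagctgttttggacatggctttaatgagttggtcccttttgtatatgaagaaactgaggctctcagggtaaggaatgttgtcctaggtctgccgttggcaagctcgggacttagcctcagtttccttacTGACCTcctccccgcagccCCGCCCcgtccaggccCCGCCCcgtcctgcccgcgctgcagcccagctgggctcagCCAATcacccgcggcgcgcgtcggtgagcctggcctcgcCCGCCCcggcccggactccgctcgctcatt
Acadvl, chr11:70015379-70015678, minus strand: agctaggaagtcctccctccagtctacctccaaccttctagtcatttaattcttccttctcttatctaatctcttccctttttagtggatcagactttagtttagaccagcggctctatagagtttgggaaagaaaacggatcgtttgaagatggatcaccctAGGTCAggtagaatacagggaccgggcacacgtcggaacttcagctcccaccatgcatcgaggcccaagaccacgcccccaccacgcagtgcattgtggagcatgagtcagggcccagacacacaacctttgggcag
Acot2, chr12:83987611-83987910, plus strand: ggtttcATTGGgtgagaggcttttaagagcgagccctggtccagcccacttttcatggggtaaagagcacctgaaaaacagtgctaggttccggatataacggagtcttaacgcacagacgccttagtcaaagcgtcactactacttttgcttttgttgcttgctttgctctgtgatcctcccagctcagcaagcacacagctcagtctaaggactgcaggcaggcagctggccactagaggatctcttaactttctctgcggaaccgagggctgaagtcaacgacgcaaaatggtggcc
Pdk4, chr6:5496229-5496528, minus strand: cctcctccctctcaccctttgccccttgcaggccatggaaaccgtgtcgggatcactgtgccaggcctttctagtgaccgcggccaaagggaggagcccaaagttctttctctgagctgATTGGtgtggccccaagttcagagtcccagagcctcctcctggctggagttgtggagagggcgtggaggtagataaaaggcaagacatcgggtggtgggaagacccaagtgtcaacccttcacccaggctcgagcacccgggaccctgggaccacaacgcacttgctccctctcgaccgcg
Oxct1, chr15:4026178-4026477, plus strand: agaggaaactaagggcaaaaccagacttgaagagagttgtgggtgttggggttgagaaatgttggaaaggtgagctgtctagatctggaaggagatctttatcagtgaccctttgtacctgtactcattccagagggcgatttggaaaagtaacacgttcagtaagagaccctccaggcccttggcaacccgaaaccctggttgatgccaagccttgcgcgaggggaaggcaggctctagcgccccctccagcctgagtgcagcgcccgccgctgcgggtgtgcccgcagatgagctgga
Acsm2, chr7:119554090-119554389, plus strand: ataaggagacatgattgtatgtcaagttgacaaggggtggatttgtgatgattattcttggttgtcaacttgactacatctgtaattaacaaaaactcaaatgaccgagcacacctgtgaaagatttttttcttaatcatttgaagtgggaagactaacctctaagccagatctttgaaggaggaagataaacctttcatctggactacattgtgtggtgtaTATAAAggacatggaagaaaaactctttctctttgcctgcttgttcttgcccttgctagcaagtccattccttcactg
In capitals, the Cpt1a promoter holds AGGTCA as its reverse complement TGACCT, 3 matches to GGGCGG and 1 to CCAAT. That of Acadvl holds AGGTCA and those of Acot2 and Pdk4 hold CCAAT as ATTGG. Acsm2 holds TATAAA, and Oxct1 holds none of these letters. RefSeq promoters were matched to 31 of the 34 members, all except Acaa2, Decr1 and Acat1. AGGTCA was in 7 of the 31 (22.6%) and in 16.3% of all 32851 promoters of this length, a count that includes any copy inside the longer motifs. The longer TCAAGGTCA was in 0 of 31 and in 0.423% of all promoters, and the direct repeat was in 0 of 31 and in 0.0396% of all. Only exact matches were counted, and with motifs this rare 0 of 31 says little of the members. The GC box was in 19 (61.3%) against 35.7% of all promoters, CCAAT in 12 (38.7%) against 37.4%, and TATAAA in 1 (3.23%) against 13.6%. The windows of 3 members lie far from the deposited gene start, at 10786 bases for Acsm1, 32952 for Eci2 and 52905 for Cd36, and these 3 make up 2 of the 7 members with AGGTCA, 2 of the 19 with the GC box and 3 of the 12 with CCAAT. The matches describe letters in one window near a RefSeq start and say nothing of binding.

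In all 3 genes of the carnitine shuttle each KO pool exceeded each WT pool, where 19.7% of all genes did so. Cpt1a, the outer membrane acyltransferase that sets the rate of fatty acid entry, lies on the plus strand of chr19:3323301-3385732. Its FPKM was 121 and 84.6 in WT pools 1 and 2 and 126 and 170.2 in KO pools 1 and 2. The KO mean was 1.44-fold the WT mean, a log2 difference of 0.53 (SE 0.25, limma adjusted p = 0.797), and it was 0.28 without WT pool 2. WT pool 1 and KO pool 1 were close for Cpt1a, while KO pool 2 was high and WT pool 2 low. Cpt2, which returns the acyl group to coenzyme A inside the mitochondrion, had 97.6 and 57.2 in WT and 105 and 108 in KO. Slc25a20, the carrier that exchanges acylcarnitine for carnitine across the inner membrane, had 22.2 and 10.1 in WT and 25.9 and 24.3 in KO. Their log2 differences of 0.51 and 0.72 became 0.12 and 0.17 without WT pool 2, so that both lay near WT pool 1 in the KO pools.

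The acyl-CoA dehydrogenases, which carry out the oxidation that opens each round, had a median log2 difference of 0.32 over 6 genes, all of them lowest in WT pool 2, and of 0.074 without that pool. Acadl, for long chains, had an FPKM of 184 and 137 in WT and 207 and 199 in KO. Acadvl, for very long chains, had 70.7 and 48.5 in WT and 94.2 and 79.8 in KO, a log2 difference of 0.56 (SE 0.23, limma adjusted p = 0.786) that was 0.29 without WT pool 2 and 0.83 without WT pool 1. These 2 genes had groups that did not overlap. Acadm, for medium chains, had 161 and 84.5 in WT and 213 and 127 in KO, so that each group held 1 high and 1 low pool. Acads, for short chains, had 77.3 and 64.3 in WT and 72.6 and 97.1 in KO. Acad10 and Acad11, dehydrogenases with a kinase-like domain, had 14.6 to 21.9 and 13.0 to 20.0 in WT and 18.8 to 19.9 and 18.0 to 21.5 in KO. In Acadm, Acads, Acad10 and Acad11 the groups overlapped.

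The enzymes from hydration to thiolysis showed the same low WT pool 2. Echs1, the short-chain enoyl-CoA hydratase, had the narrowest range of these enzymes, with 25.9 and 22.2 in WT and 26.4 and 29.0 in KO. Hadha and Hadhb encode the subunits of the mitochondrial trifunctional protein and are divergently transcribed on chromosome 5, with 85 bases between their annotated starts. Hadha had 31.4 and 25.0 in WT and 42.8 and 31.6 in KO, and Hadhb had 25.5 and 18.0 in WT and 36.2 and 22.7 in KO. In both genes KO pool 1 was the highest and WT pool 2 the lowest. Hadh, the dehydrogenase of the second oxidation, had 86.3 and 54.1 in WT and 84.6 and 89.3 in KO, and its log2 difference of 0.34 was 0.010 without WT pool 2. Acaa2, the mitochondrial thiolase, had 214 and 96.5 in WT and 214 and 231 in KO. WT pool 1 of Hadh and Acaa2 was thus at the level of the KO pools, and WT pool 2 alone lay below it.

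Auxiliary enzymes, which prepare unsaturated fatty acids for oxidation, had a median log2 difference of 0.70, or 0.23 without WT pool 2. Eci1, an enoyl-CoA isomerase, had 161 and 71.0 in WT and 221 and 174 in KO, a log2 difference of 0.87 (SE 0.43, limma adjusted p = 0.797). Eci2, a related isomerase, had 26.2 and 13.3 in WT and 34.6 and 27.3 in KO. Decr1, the dienoyl-CoA reductase, had 76.4 and 37.5 in WT and 82.9 and 74.7 in KO. In all 3, WT pool 2 stood well below the other pools, and without it the log2 differences were 0.28, 0.23 and 0.042. The electron transfer flavoprotein genes were closer together. Etfa had 154 and 102 in WT and 155 and 159 in KO, Etfb had 49.7 and 34.6 in WT and 49.3 and 57.8 in KO, and Etfdh, the oxidoreductase that passes the electrons to ubiquinone, had 28.7 and 16.9 in WT and 28.2 and 33.3 in KO. Their log2 differences were 0.32 to 0.47 with all pools and 0.029 to 0.10 without WT pool 2.

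Fatty acid uptake and the fuel switch held the members with the widest range. Pdk4, the kinase that shuts off pyruvate dehydrogenase and so favours fatty acid use, lies on the minus strand of chr6:5483351-5496309. Its FPKM was 51.3 and 14.5 in WT and 125 and 55.4 in KO. WT pool 1 and KO pool 2 were close, while KO pool 1 was 8.62-fold WT pool 2. The log2 difference of 1.59, the largest of the 34, had an SE of 0.71 (limma adjusted p = 0.797), and it was 0.69 without WT pool 2, 2.48 without WT pool 1, 1.01 without KO pool 1 and 2.17 without KO pool 2. Cd36, a fatty acid translocase of the plasma membrane, had 160.4 and 71.3 in WT and 301 and 146 in KO, so that its groups overlapped and KO pool 1 stood above the rest. Fabp3, a cytosolic fatty acid binding protein, had 75.1 and 42.6 in WT and 85.0 and 57.6 in KO. Acsf2, a mitochondrial synthetase for medium chains, also had 1 high KO pool, with 16.0 and 9.30 in WT and 33.0 and 16.0 in KO.

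Among the other synthetases and the thioesterase, the members did not move as a block. Acot2, the mitochondrial thioesterase that frees long-chain fatty acids from coenzyme A, had 32.1 and 18.2 in WT and 51.4 and 42.2 in KO. Both KO pools were above WT pool 1, and the log2 difference of 0.93 (SE 0.30, limma adjusted p = 0.785) was 0.53 without WT pool 2 and 1.33 without WT pool 1. Acsl1, the long-chain synthetase, had 36.0 and 17.1 in WT and 32.8 and 38.3 in KO, which gave -0.022 without WT pool 2. Acsm1, Acsm2 and Acsm3 activate medium-chain acids and lie near each other on chromosome 7. Acsm2 had 285 and 187 in WT and 100.3 and 285 in KO, with WT pool 1 and KO pool 2 level and KO pool 1 far lower. Acsm3 had 36.7 and 20.1 in WT and 21.3 and 30.3 in KO, whereas Acsm1 had 64.2 and 45.9 in WT and 64.2 and 68.7 in KO. Acss1, which activates acetate in mitochondria, had 55.3 and 35.9 in WT and 48.3 and 56.0 in KO. Slc27a2, a very-long-chain synthetase that also serves as a transporter and is found in peroxisomes too, had the highest mean level of the 34 at an FPKM of 529, with 616 and 457 in WT and 552 and 490 in KO. Its groups overlapped, and its log2 difference was -0.029 (SE 0.24).

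Among the ketone body genes, KO pool 1 and not WT pool 2 was the lowest for 2 of 3. Oxct1, the transferase that commits ketone bodies to oxidation, lies on the plus strand of chr15:4026383-4155344. It had an FPKM of 155 and 142 in WT and 73.4 and 127 in KO. The WT pools were closer to each other than for any other member, and both KO pools were below them. The KO mean was 0.677-fold the WT mean, a log2 difference of -0.61 (SE 0.29, limma adjusted p = 0.797), which was -0.22 without KO pool 1 and -1.01 without KO pool 2. Bdh1, the 3-hydroxybutyrate dehydrogenase, had 19.3 and 14.9 in WT and 10.4 and 19.1 in KO. Acat1, which cleaves or forms acetoacetyl-CoA, had 128 and 80.0 in WT and 103 and 136 in KO. Bdh1 and Acat1 overlapped between groups, and Bdh1 was the least expressed member at a mean FPKM of 15.9.

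**Figure D2:**
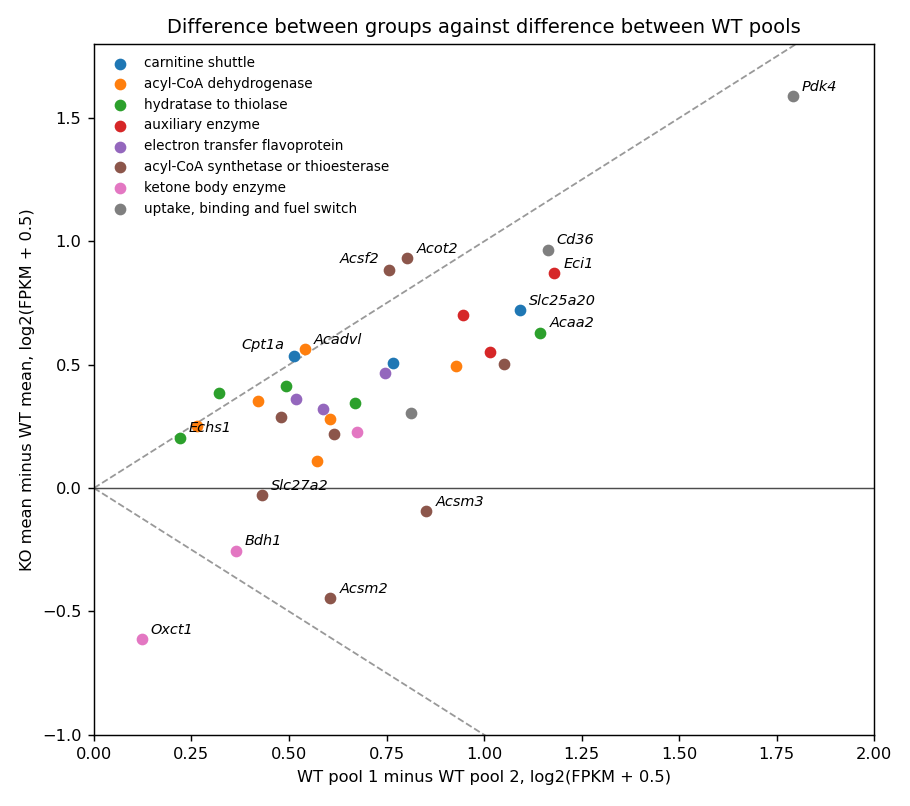
Each point is 1 of the 34 genes, coloured by role: the x axis is WT pool 1 minus WT pool 2 and the y axis is the KO mean minus the WT mean, both on the log2(FPKM + 0.5) scale, and on the dashed lines both differences are equal in size. All points lie to the right of 0, and 28 lie between the dashed lines, where the WT pools differ by more than the groups. Neither count was made over all genes.

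**Figure D3:**
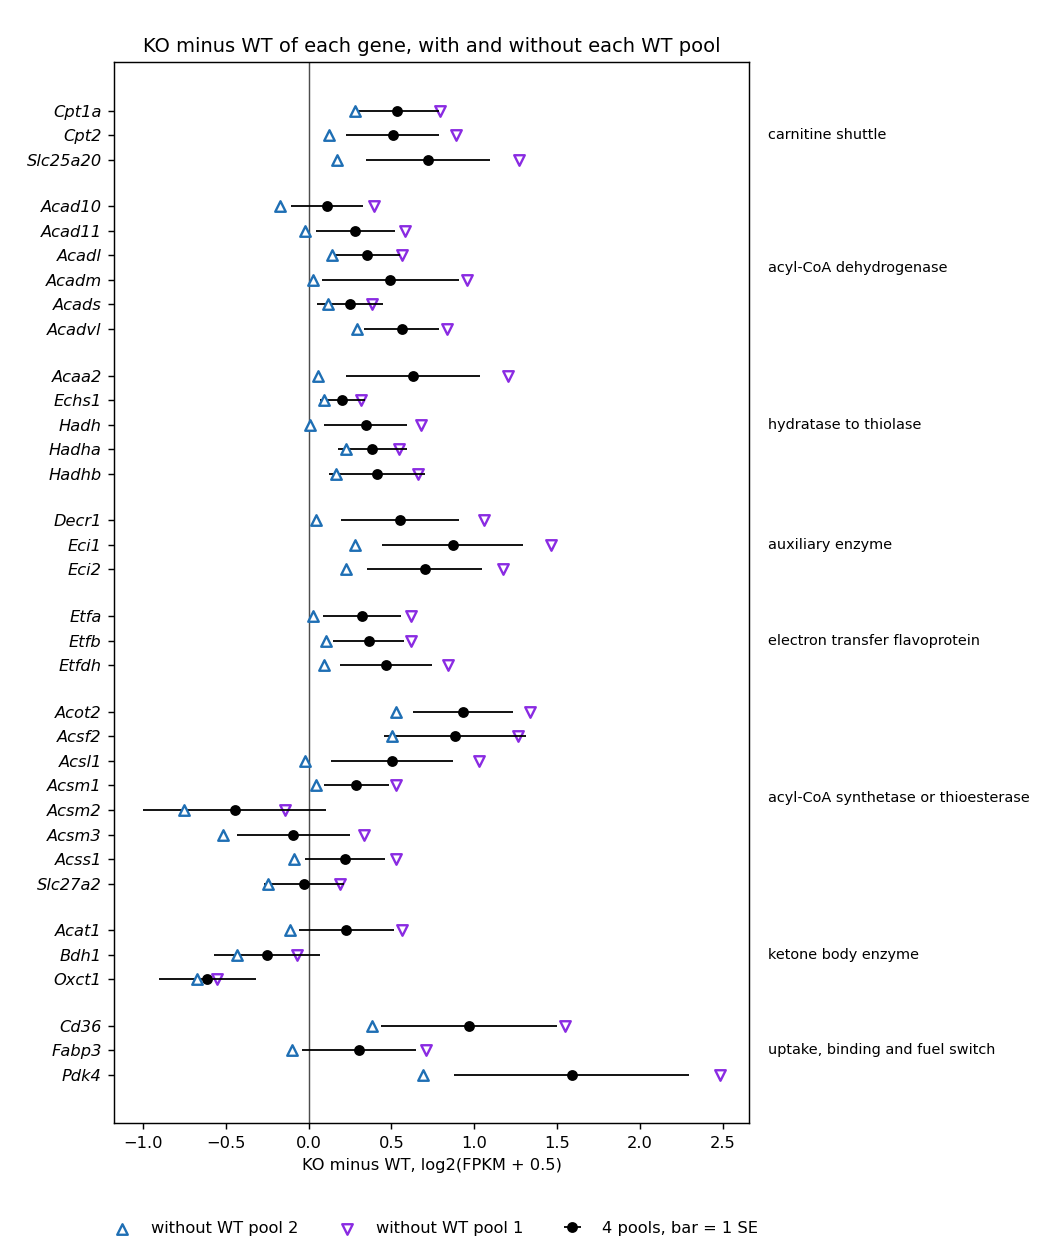
KO minus WT on the log2(FPKM + 0.5) scale for each gene with all 4 pools (black, with 1 SE from limma), without WT pool 2 (blue, upward triangles) and without WT pool 1 (purple, downward triangles). Without WT pool 2, 23 of 34 genes lie within 0.25 of 0, while Pdk4, Acot2 and Acsf2 stay above 0.5 and Acsm2, Oxct1 and Acsm3 lie under -0.5. The share of all genes within 0.25 of 0 was not counted.

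The rest of the pathway, listed by function, had no direction that held without WT pool 2. Of 50 other fatty acid oxidation and ketone genes 45 were tested, of which 0 passed the adjusted threshold, 25 were higher and 20 lower in KO. By comparison, 7917 of all 15414 genes tested were higher and 7497 lower. The median log2 difference of the 45 was 0.050 with all pools and -0.12 without WT pool 2. Without that pool, both KO pools were below WT pool 1 for 26 of the 45, where 32.0% of all genes were. They were above it for 16, where 34.3% of all genes were. At an unadjusted limma p under 0.05 there were 3, singled out after their values were seen, namely the synthetase Acsl4 and the transporter Slc27a4, higher, and the synthetase Acsl3, lower. By the same criterion 3.29% of all genes were higher and 3.03% lower. WT pool 2 was the lowest pool for 27 of the 45. Cpt1b, the muscle form of the acyltransferase, was at an FPKM of 0.034 to 0.384 and under the filter. The 21 citrate cycle genes had a median of 0.087, with 16 higher and 5 lower and 0 past either threshold, and 18 of them were lowest in WT pool 2. Without that pool their median was -0.062, with both KO pools below WT pool 1 for 9 and above it for 4. Of all genes, 32.0% were below and 34.3% above in this way. Without KO pool 2 the median of the citrate cycle genes was -0.012.

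Of 18 tested regulators of the pathway, each KO pool exceeded each WT pool for 5, where 19.7% of all genes did so. Both KO pools lay below both WT pools for 1, where 18.1% of all genes did so. In the other 12 the groups overlapped. Ppara, the receptor PPARalpha, had 19.0 and 14.8 in WT and 31.9 and 29.1 in KO, so that its groups did not overlap. Its log2 difference of 0.84 (SE 0.16, limma adjusted p = 0.650) was 0.66 without WT pool 2. The coactivator gene Ppargc1a had 10.2 and 7.25 in WT and 8.22 and 8.55 in KO, Esrra, an estrogen-related receptor, had 63.0 and 52.1 in WT and 46.2 and 54.7 in KO, and Hnf4a had 154 and 136 in WT and 154 and 144 in KO. All 3 overlapped between groups. Of 19 listed regulators 18 were tested, with 0 past the adjusted threshold and 11 higher and 7 lower. Their median log2 difference was 0.052 with all pools. It was 0.041 without WT pool 2, 0.16 without WT pool 1, 0.046 without KO pool 1 and 0.11 without KO pool 2. At an unadjusted limma p under 0.05, 2 were higher, Ppara and Ppargc1b, compared with 3.29% of all genes. By this criterion 0 were lower, compared with 3.03% of all genes. Ppargc1b, a coactivator related to Ppargc1a and singled out after its values were seen, had 1.86 and 1.94 in WT and 2.94 and 3.07 in KO, a log2 difference of 0.55 (SE 0.13, limma adjusted p = 0.732) that was 0.57 without WT pool 2. The other genes without overlap, also named after their values were seen, were Esrrb, Ncor1 and Prkaa2, higher in KO, and Sirt1, lower, and all 4 had an unadjusted limma p of 0.0815 or more. The list of known PPARalpha targets outside the mitochondria, which holds peroxisomal, microsomal and lipid droplet genes and some of secreted or membrane proteins, had a larger median than the members. Of 16 genes 14 were tested, and 14 were higher in KO, where 7917 of all 15414 genes tested were. The median log2 difference of the 14 was 0.97, and 0 of them passed the adjusted threshold. In 10 each KO pool exceeded each WT pool, where 19.7% of all genes did so. At an unadjusted limma p under 0.05, 4 were higher, compared with 3.29% of all genes, and 0 were lower, compared with 3.03%. All 14 were lowest in WT pool 2, and without that pool the median was 0.45, compared with 0.075 for the members. Both KO pools were then above WT pool 1 for 10 of the 14, where 34.3% of all genes were. They were below it for 1, where 32.0% of all genes were. Angptl4, a secreted inhibitor of lipoprotein lipase in that list, had 41.6 and 26.3 in WT and 86.8 and 44.5 in KO.

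Cell type markers also differed between the pools. The 21 tested proximal tubule genes of 22 had a summed FPKM of 14675 and 7963 in WT and 10456 and 14408 in KO, of which Kap and Pck1 made up most, none of the defining markers Lrp2, Cubn, Slc34a1, Slc5a2, Slc5a12 and Slc22a6 was at 0, and WT pool 2 was the lowest pool for 9 of 21 and KO pool 1 for 11. Without Kap and Pck1, left out after their values were seen, the sums were 3928 and 3001 in WT and 2297 and 3498 in KO, so that KO pool 1 was the lowest. Over all 21 the median log2 difference was -0.23, with 14 of 21 lower in KO, where 7497 of all 15414 genes were. It turned to 0.093 without KO pool 1, while it was -0.38 without KO pool 2, -0.023 without WT pool 1 and -0.40 without WT pool 2. Both KO pools lay below both WT pools for 8 (18.1% of all genes) and above them for 1 (19.7%). Without WT pool 2, both KO pools were below WT pool 1 for 12 (32.0% of all genes) and above it for 1 (34.3%). At an unadjusted limma p under 0.05, 4 were lower (3.03% of all genes) and 0 higher (3.29%). Slc34a1, the phosphate transporter, had 898 and 689 in WT and 365 and 609 in KO, and so was lowest in KO pool 1, like Oxct1, Bdh1 and Acsm2. Among the other defining markers, Lrp2, Slc5a2 and Slc5a12 were also lowest in KO pool 1, whereas Cubn and Slc22a6 were lowest in WT pool 2. Slc22a6 had 233 and 141 in WT and 236 and 383 in KO, so that each KO pool exceeded each WT pool. The 12 macrophage genes, all tested, had a summed FPKM of 209 and 492 in WT and 265 and 236 in KO, and none of Adgre1, Cd68, Csf1r and C1qa was at 0. Of these genes, 9 of 12 were highest in WT pool 2, among them C1qa with 88.3, compared with 38.7 in WT pool 1 and 43.1 and 33.3 in KO. The other 3, named after their values were seen, were Cd14, highest in KO pool 1, and Itgam and Cd163, highest in KO pool 2, and Cd163 was lowest in WT pool 2. The median log2 difference of the 12 was -0.43 with all pools and turned to 0.075 without WT pool 2. The 11 tested distal nephron genes of 12 had summed FPKM of 2006 and 1464 in WT and 2048 and 1694 in KO, with Umod, Slc12a1, Slc12a3, Aqp2 and Cdh16 all detected, and their median log2 difference of 0.096 turned to -0.095 without WT pool 2. The 9 endothelial genes, with Pecam1, Cdh5, Kdr and Emcn all detected, had 106 and 134 in WT and 125 and 154 in KO. All 9 had a higher mean in KO, where 7917 of all 15414 genes did, with a median log2 difference of 0.20. It was 0.34 without WT pool 2, 0.043 without WT pool 1, 0.32 without KO pool 1 and 0.081 without KO pool 2. Each KO pool exceeded each WT pool for 4, where 19.7% of all genes did so. Without WT pool 2, both KO pools were above WT pool 1 for all 9, where 34.3% of all genes were. The 15 tubular injury genes had a summed FPKM of 8493 and 9576 in WT and 10769 and 8296 in KO, most of it from Spp1, singled out after its values were seen, without which the sums were 1468 and 1787 in WT and 1808 and 1425 in KO. Their median log2 difference of 0.085, with 8 higher and 7 lower, had no stable sign, as it was -0.15 without WT pool 1, -0.11 without KO pool 1 and -0.084 after quantile normalization, compared with 0.16 without WT pool 2 and 0.11 without KO pool 2. Of the 15, 4 had an unadjusted limma p under 0.05, 3 of them higher and 1 lower in KO. Of all genes, 3.29% were higher and 3.03% lower by this criterion. These 4, named after their values were seen, were Lcn2 (1.21), Krt20 (0.73) and Cdkn1a (1.02), higher in KO on the log2 scale, and Vcam1 (-1.91), lower. Of 9 adipocyte genes 3 were tested, with a summed FPKM of 7.74 and 4.45 in WT and 18.5 and 6.90 in KO and a median log2 difference of 0.63, which was 0.22 without WT pool 2 and turned to -0.24 without KO pool 1. These 3 were Cidec, a lipid droplet gene with an unadjusted limma p of 0.0220 (adjusted 0.785), and, named after their values were seen, Plin4 at 1.05 to 5.63 and Lipe at 2.96 to 5.00. All 3 were highest in KO pool 1. The part of these markers in the differences of the members was not tested.

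**Figure D4:**
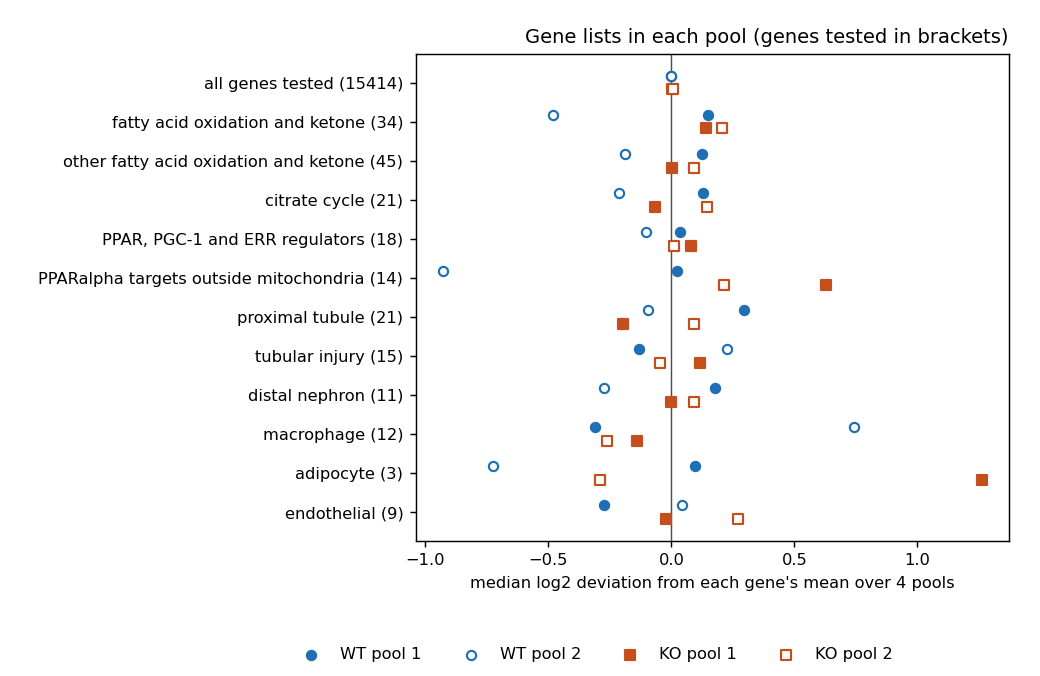
Median over each gene list of the log2(FPKM + 0.5) value in a pool minus the mean of the gene over the 4 pools (circles, WT; squares, KO; filled, pool 1; open, pool 2), with the number of genes tested in brackets. The members lie at -0.48 in WT pool 2 and between 0.14 and 0.21 in the other 3 pools, the PPARalpha targets at -0.93 in WT pool 2, and the macrophage genes at 0.74 in that pool.

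Some members share sequence or position with other genes, and how shared reads were counted is not given in the sources used here. Of windows of 100 bases in the principal transcript of Acot2, 17.1% occur in Acot1, its cytosolic relative, which had 64.3 and 21.7 in WT and 74.3 and 81.0 in KO, the same order of groups as Acot2. For Hadhb, 52.8% of windows occur in Gm13910, which was listed at 24.6 to 50.1, so that the level of Hadhb is uncertain. For Etfb, 65.2% occur in the overlapping gene Gm45233, which was listed at 0 in every pool. Acad10, Acad11, Acsf2, Eci2 and Fabp3 shared 1.34% to 21.9% of their windows with another gene. The gene bodies of 8 members overlap a protein-coding gene on the other strand, and the strand setting of the counting is not given in the sources used here. Levels also depend on the gene length used. The deposited length of Echs1 was 8286 bases against 1557 for its principal GENCODE M21 transcript, which would lift its mean FPKM from 25.9 to 138. That of Hadh was 4977 against 1789, which would lift 78.6 to 219, whereas Slc27a2 stayed the highest and Bdh1 the lowest on both scales. Differences between pools of 1 gene do not depend on this length.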

How the data were processed

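Total kidney RNA was purified with poly-T beads, primed with random hexamers and sequenced by a company (per the labels and the study). The authors deposited FPKM values, 1 per gene and pool. Per the submitters' processing notes the tools and builds were HISAT2 2.0.5 and mm10 or GRCm38.p6; the counting tool and annotation release are not given in the sources used here. Of 53620 genes shared with GENCODE M21, 97.08% had identical coordinates. FPKM times gene length gave whole reads within 0.01 for 100% of nonzero values, which gave the depth of 16045724 to 16927742 reads on genes per library.

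The test was limma 3.58.1 (R 4.3.3) applied to log2(FPKM + 0.5), two-sided, with a mean-variance trend and no covariates, 2 pools against 2. Genes averaging under 0.5 FPKM were left out, p-values of the other 15414 were adjusted by Benjamini-Hochberg, and the threshold was 0.05. The limma code was tested on simulated data. An exact permutation test of 2 against 2 pools cannot give a two-sided p under 0.333. Other settings tried were a pseudocount of 0.1 or 1, every gene kept or a filter at 1 FPKM, quantile-normalized values, a fit lacking the trend, a replicate block, voom weights from the reads, unadjusted p-values, and each pool left out. The members and lists were chosen with earlier results of these data known. By rule, all members were named, and of the other lists the defining cell type markers, Apela, Ppara, Ppargc1a, Esrra, Hnf4a, Acot1, Cpt1b and Angptl4. Other genes of these lists were named after their values were seen, as stated beside each. Some genes of the other lists are not reported here by name. Promoters came from RefSeq on GRCm38.p6. Other steps used Python 3.11.15 with numpy 2.4.6, pandas 2.3.3 and matplotlib 3.10.9. The numbers of same-numbered pools did not deviate together (correlation -0.0017 over 15414 genes), so the pools were not treated as pairs.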

Additional observations from a re-analysis of the deposited data

How the results depend on the processing

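With limma, 0 genes and 0 members had an adjusted p under 0.05 with a pseudocount of 0.1 or 1, with every gene kept or a filter at 1 FPKM, after quantile normalization, without the trend, with voom weights and with each pool left out. Unadjusted, 974 genes and 1 member had a p under 0.05. Under the other settings with all pools this ranged from 845 of 13403 genes, with a filter at 1 FPKM, to 1538 of 27251, with every gene kept. For members it was 1 or 2 of 34 with all pools, except 9 of 34 with the replicate block, where 932 of 15414 genes had such a p. With 3 pools, the lone pool of a group is assumed to vary like the other group. The replicate block gave 0 genes and 0 members past the adjusted threshold, and as the pools share only a number, no pairing is implied.

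The median log2 difference of the members was 0.30 after quantile normalization, 0.37 to 0.38 under the other settings with all pools, and 0.075 to 0.67 with a pool left out. Each KO pool lay above each WT pool for 13 members (19.7% of all genes), and with a pool left out this was 13 to 31. The criterion is looser with 3 pools, and 34.3% of all genes met it without WT pool 2 (13 members), 37.7% without WT pool 1 (31), 34.8% without KO pool 1 (23) and 35.1% without KO pool 2 (19). No member changed sign with all pools. With a pool left out, 10 did, and their log2 differences ranged from -0.022 to 1.03 for Acsl1, -1.20 to 0.31 for Acsm2, -0.52 to 0.33 for Acsm3, -0.089 to 0.53 for Acss1, -0.11 to 0.56 for Acat1, -0.68 to 0.17 for Bdh1, -0.10 to 0.71 for Fabp3, -0.18 to 0.40 for Acad10, -0.021 to 0.58 for Acad11 and -0.24 to 0.19 for Slc27a2. The cause was not tested. With 2 pools a group, the spread between pools and not the read depth limits the precision.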

Other observations

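The order of the 34 members by level differed between the pools. Slc27a2 was the most abundant in every pool. Acsm2 ranked 2 in WT pool 1, WT pool 2 and KO pool 2 and 12 in KO pool 1, Oxct1 ranked 3 in WT pool 2 and 17 in KO pool 1, and Pdk4 ranked 30 in WT pool 2 and 9 in KO pool 1. Cd36 ranked 10 in WT pool 2 and 2 in KO pool 1, and Eci1 ranked 11 and 3 in these pools. Cd36 and Pdk4 had their highest value in KO pool 1, together with Acsf2, Fabp3, Hadha, Hadhb and Acadm among others (14 members), whereas 15 members, among them Cpt1a, Acaa2, Etfb and Acads, had theirs in KO pool 2. WT pool 1 was the highest for 5, Acsm3, Bdh1, Oxct1, Acad10 and Slc27a2. KO pool 1 and KO pool 2 differed by 2.25-fold for Pdk4, 2.06-fold for Cd36 and for Acsf2 with KO pool 1 the higher, and KO pool 1 was at 0.351-fold of KO pool 2 for Acsm2, 0.544-fold for Bdh1 and 0.576-fold for Oxct1. No explanation for these differences between pools was tested.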
